A study of Mus musculus with 36 samples.

Results

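The contractile actin cytoskeleton genes described here are 9 genes taken by name from the 21442 genes of the count table: Acta2, Tagln, Cnn1, Cnn2, Myl9, Tpm1, Tpm2, Tpm4 and Ankrd1. All 9 were found. The rule names genes and uses no measured value, but the names were proposed with earlier results of these data known. RNA-seq libraries were made from 6 stages of mouse cells and 2 genotypes, with 3 replicates in each of the 12 groups and 36 libraries in all. The stages were embryonic fibroblasts (MEFs), reprogramming cells on days 3, 5 and 7, clones of induced pluripotent cells (iPSCs), and embryonic stem cells (ESCs). The comparison of genotypes asked what loss of Zfp266, a KRAB zinc finger gene, did to gene expression at each stage.

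The groups were built on a 129 strain ESC line with Cas9 in the Rosa26 locus, an MKOS-ires-mOrange cassette under doxycycline control in the Sp3 locus, and Nanog-GFP-ires-Puro as a reporter. MKOS stands for the reprogramming factors c-Myc, Klf4, Oct4 and Sox2. MEFs were passage 2 cells from E12.5 chimeras made by aggregating this line with host morulae of another strain, so the unsorted MEF libraries can hold host cells without the transgenes. They were collected, without sorting, 96 h after transduction with a non-targeting sgRNA (wild type, WT) or a Zfp266 sgRNA (knockout, KO). Reprogramming cells received the same sgRNAs before induction in ESC medium with 300 ng/ml doxycycline and 10 µg/ml vitamin C, were grown among an excess of WT MEFs, and were sorted for mOrange. KO MEFs and KO reprogramming cells were therefore edited populations and not clones. The iPSCs were 3 clones of each genotype, grown without doxycycline in 1 µg/ml puromycin. The KO ESCs were 3 clones, and the WT ESCs were 3 samples of a single parental clone, so the spread among WT ESCs does not include clonal differences. Where nothing names separate cultures or animals, the p-values measure only the spread between these samples, which may be technical.

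Non-muscle and smooth muscle cells produce tension by sliding myosin along actin filaments, and fibroblasts that spread on a stiff dish assemble these filaments into stress fibres. Free actin monomer holds the coactivator MRTF in the cytoplasm. When actin polymerises, MRTF enters the nucleus and acts with SRF at CArG boxes in genes for actin and its binding proteins, while the same tension favours YAP, which acts through TEAD factors. Loss of fibroblast identity and of this contractile programme is a known early part of reprogramming to pluripotency.

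Coordinates below are from GENCODE on GRCm38. Acta2 (chr19:34241090-34255590, minus strand, 10 merged exons) encodes smooth muscle α-actin, a filament subunit and a marker of myofibroblasts. Tagln (chr9:45929619-45936058, minus strand, 5 merged exons) encodes transgelin, or SM22α, which cross-links actin. Cnn1 (chr9:22099216-22109630, plus strand, 8 merged exons) and Cnn2 (chr10:79988584-79996062, plus strand, 7 merged exons) encode calponins, which bind actin and restrain myosin ATPase. Myl9 (chr2:156775420-156781658, plus strand, 4 merged exons) encodes a regulatory light chain of myosin II. Tpm1 (chr9:67022590-67049406, minus strand, 13 merged exons), Tpm2 (chr4:43514711-43523765, minus strand, 9 merged exons) and Tpm4 (chr8:72134975-72153142, plus strand, 9 merged exons) encode tropomyosins, which lie along the filament and govern access of myosin. Ankrd1 (chr19:36111961-36120099, minus strand, 8 merged exons) encodes an ankyrin repeat protein of muscle and a known target of YAP.

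The RefSeq promoter table held 8 of the 9 members; it had no entry for Tagln. The 250 bases before each RefSeq start were searched for the CArG box (CC, then 6 bases of A or T, then GG, which reads the same class on both strands) and for the TEAD motif CATTCC on both strands. A CArG box was present in 2 of the 8 member promoters, Myl9 and Cnn2, and in 1.47% of 32851 RefSeq promoters. The TEAD motif was present in 3 of 8, Acta2, Ankrd1 and Tpm1, and in 12.6% of all. The promoters of Myl9 and Cnn2 are shown because they hold the strict CArG box and because these were the only members at day 7 that did not pass the test below. Both stretches are from the plus strand of RefSeq GRCm38.p6, run 5′ to 3′ up to the first GENCODE exon base, and have the CArG box in capitals. The Myl9 stretch is chr2:156775214-156775419, with the box starting 161 bases before the RefSeq start, and the Cnn2 stretch is chr10:79988350-79988583, with the box starting 56 bases before.
Myl9: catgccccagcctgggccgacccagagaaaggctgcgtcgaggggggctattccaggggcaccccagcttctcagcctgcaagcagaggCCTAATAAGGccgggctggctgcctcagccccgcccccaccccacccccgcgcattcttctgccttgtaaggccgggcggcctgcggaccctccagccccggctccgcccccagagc
Cnn2: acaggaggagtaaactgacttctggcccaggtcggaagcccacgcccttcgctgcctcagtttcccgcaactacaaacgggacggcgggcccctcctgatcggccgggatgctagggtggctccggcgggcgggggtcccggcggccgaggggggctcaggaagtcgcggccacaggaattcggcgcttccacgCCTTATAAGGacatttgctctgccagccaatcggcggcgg

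For Acta2, Ankrd1 and Tpm1 only the 30 bases around each TEAD motif are shown, in capitals where the motif or its reverse complement GGAATG lies, because these are the members whose window held it. All are read 5′ to 3′ on the gene's own strand, which is minus for the 3 genes. They lie before the RefSeq starts but inside the GENCODE gene intervals given above, downstream of the annotated 5′ ends. The regions are chr19:34255502-34255531 for Acta2, chr19:36120037-36120066 and chr19:36119950-36119979 for Ankrd1, and chr9:67049252-67049281 for Tpm1.
Acta2, TEAD motif: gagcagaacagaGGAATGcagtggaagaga
Ankrd1, distal TEAD motif: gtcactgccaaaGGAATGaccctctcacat
Ankrd1, proximal TEAD motif: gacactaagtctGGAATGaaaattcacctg
Tpm1, TEAD motif: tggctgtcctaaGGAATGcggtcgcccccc
A wider search, chosen after the first result was seen, allowed 1 base of the CArG core to be C or G. It found matches in 3 member promoters, adding Acta2, and in 8.59% of all promoters. The 2 Acta2 elements, in capitals, lie at chr19:34255438-34255467 and chr19:34255388-34255417, also inside the GENCODE interval of the gene.
Acta2, distal CArG-like element: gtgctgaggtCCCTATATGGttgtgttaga
Acta2, proximal CArG-like element: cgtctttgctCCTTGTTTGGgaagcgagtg
A match describes letters in this window, and no match says nothing about binding elsewhere.

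The libraries held 19224103 to 39610939 counts. The 9 members together took 0.259% to 0.384% of the counts in MEF libraries, 0.0448% to 0.0664% during reprogramming and 0.0128% to 0.0204% in pluripotent cells. Zfp266 transcript is no test of editing by small insertions and deletions, and its normalised counts were 3072 to 3293 in KO MEFs against 2828 to 3096 in WT MEFs, and 1501 to 1557 against 1432 to 1535 at day 7. Fibroblast markers summed to 779021 to 800477 normalised counts in WT MEFs and 29600 to 36730 in WT ESCs, while 10 pluripotency markers summed to 57.6 to 71.3 and 146358 to 151523. The third KO MEF library stood apart, with 11899 normalised counts of the fibroblast surface marker Thy1 against 18412 and 19242 in the other KO MEFs. Its vascular smooth muscle and pericyte markers summed to 6157, against 14989 and 15406. In bulk RNA, fewer cells of a type and less RNA per cell cannot be told apart, here and in every result below.

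Contractile transcripts were abundant in WT MEFs. Levels of different genes were compared as normalised counts per kb of merged exon. On this scale Tpm4 was highest in WT MEFs at 8983, followed by Tagln at 5226, Acta2 at 5126, Tpm1 at 4809, Cnn2 at 4378, Tpm2 at 2640 and Myl9 at 1589 (means, n = 3). Ankrd1 at 124 and Cnn1 at 99.5 were far below. By day 7 in WT cells the order was Tpm4 at 2221, Tpm1 at 1041, Tagln at 839, Cnn2 at 716, Acta2 at 528, Tpm2 at 281, Myl9 at 129, Cnn1 at 23.3 and Ankrd1 at 15.1 per kb. In WT iPSCs Tpm4 at 657, Tpm1 at 352 and Cnn2 at 339 led, and Acta2 had fallen to 2.29 per kb. Parts of these orders are not firm, because mean ± SD ranges of neighbours overlapped. This held for Tagln, Acta2 and Tpm1 in MEFs, for Tpm1, Tagln and Cnn2 and for Cnn1 and Ankrd1 at day 7, and for Tpm1, Cnn2 and Tpm2 and for Tagln, Myl9 and Cnn1 in iPSCs. The orders also depend on the merged exon length, which pools all annotated transcripts of a gene. Before division by length Tpm1 was above Tpm4 in WT MEFs, with means of 31185 and 19789 normalised counts. Their merged exons were 6.485 and 2.203 kb.

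**Figure D1:**
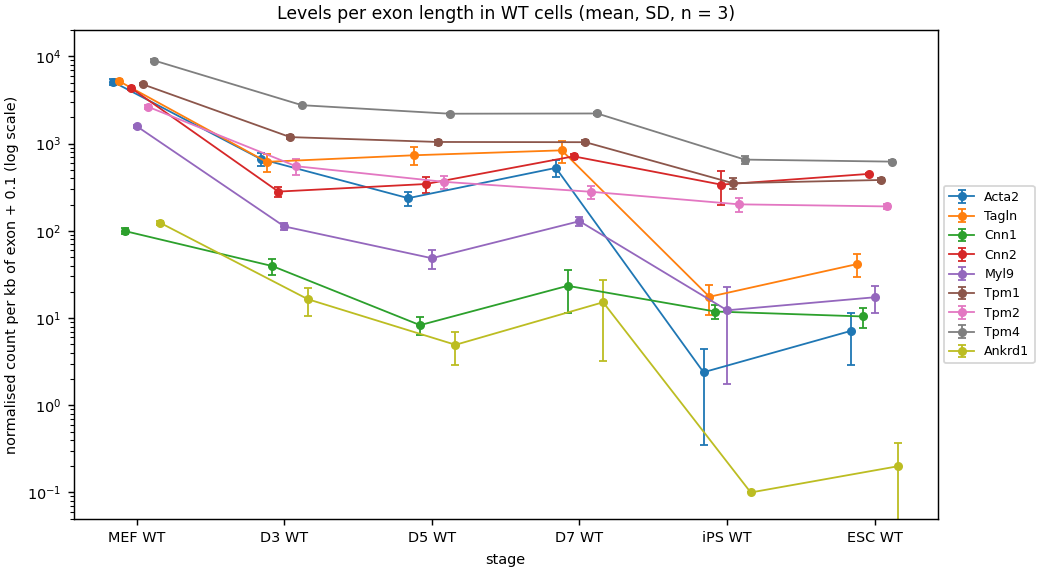
Mean normalised count per kb of merged exon (log scale, 0.1 added) for each member at the 6 stages of WT cells, with SD over 3 libraries as bars. On this scale, which depends on exon length, Tpm4 lies highest at every stage. Acta2 and Ankrd1 drop furthest between D7 and iPS.

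The move from MEFs to day 3 of reprogramming lowered all 9 members in WT cells. DESeq2 called all 9 lower at a false discovery rate (FDR) under 0.05, each also by more than 1 on the log2 scale. Of all genes tested, 37.1% were called lower, 33.8% higher, and 25.4% lower by more than 1. The WT MEF and day 3 libraries did not overlap for any of the 9 members, as for 39.8% of all genes. The median log2 change of the members was -2.92, beside -0.01 over all genes. Day 3 differed from the MEF stage in medium, factor induction, growth among an excess of WT MEFs and sorting as well as time. These cannot be told apart. Any carry-over of the added WT MEFs through sorting was not tested.

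Among the filament proteins, Acta2 had 11299, 10374 and 12098 normalised counts in WT MEFs and 1674, 1170 and 1560 at day 3 (log2 change -2.94 ± 0.52 SE, FDR 4.79e-08). Cnn2 fell furthest, from 11127, 10031 and 11151 to 770, 590 and 722 (-3.96 ± 0.28). Myl9 fell from 1906, 1761 and 1873 to 141, 119 and 132 (-3.82 ± 0.58). The calponin Cnn1 and the tropomyosins kept a larger share. Cnn1 held 39.6% of its WT MEF mean at day 3, Tpm4 30.8%, Tpm1 24.8% and Tpm2 20.9%, against 13.2% for Ankrd1, 13.0% for Acta2, 11.8% for Tagln, 7.08% for Myl9 and 6.44% for Cnn2.

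From day 3 to day 5, 5 of the 9 members fell further in WT cells (12.7% of all genes were called lower), and no member was called higher (12.4% of all genes). Acta2 went from 1674, 1170 and 1560 to 540, 414 and 609 (-1.50 ± 0.52, FDR 0.0214). Cnn1 went from 107, 86.0 and 130 to 16.5, 25.8 and 25 (-2.27 ± 0.33), and Ankrd1 from 47.7, 30.002 and 64.0 to 9.71, 11.4 and 20.8 (-1.76 ± 0.52). In these 3 genes every day 5 library lay below every day 3 library. Tpm2 (-0.59 ± 0.17) and Tpm4 (-0.32 ± 0.07) changed less. Tagln did not pass, with 1330, 901 and 1461 on day 3, then 1138, 1436 and 1821. Neither did Cnn2 (0.29, FDR 0.514). Myl9 (-1.21, FDR 0.125) and Tpm1 (-0.19, FDR 0.259) were separated without passing. Of the 9 members 3 also passed the log2 limit of 1 (1.84% of all genes), and 6 had no overlap (22.1%). Leaving out single libraries ended the Acta2 call for replicates 1 and 3 of day 3 and replicates 1 and 2 of day 5 (FDR 0.0531 to 0.0968).

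Part of the set was higher at day 7 than at day 5 in WT cells. DESeq2 called 3 members higher (13.5% of all genes), each by more than 1 on the log2 scale (4.74%), and 0 lower (10.7%). Libraries were separated upward in 4 members (22.7% of all genes). Cnn1 had 16.5, 25.8 and 25 normalised counts at day 5 and 30.4, 65.4 and 95.7 at day 7 (1.51 ± 0.33, FDR 0.0001). Cnn2 had 659, 862 and 1023 at day 5 and 1605, 1839 and 1843 at day 7 (1.06 ± 0.28, FDR 0.00167). Ankrd1 had 9.71, 11.4 and 20.8, then 10.1, 41.3 and 79.2 (1.64 ± 0.52, FDR 0.0104), and its libraries overlapped. Without the third WT day 7 library the Ankrd1 change was 0.89, with FDR 0.227, and the call was also lost without the first or the second WT day 5 library (FDR 0.0673 and 0.0509).

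Acta2 and Myl9 were also separated in these libraries but missed the threshold. Acta2 went from 540, 414 and 609 to 871, 1327 and 1278 (1.15 ± 0.52, FDR 0.0950), and Myl9 from 61.2, 40.3 and 67.7 to 139, 170 and 141 (1.41 ± 0.59, FDR 0.0657). The edgeR quasi-likelihood test called both higher, with FDR 0.0114 and 0.0326, which gave 5 members. Days 5 and 7 were taken as paired by replicate number. With a number effect shared by all libraries, also at stages not taken as paired, Myl9 passed at FDR 0.0488, for 4 members. No tropomyosin was called. Tpm1 was 6291, 6920 and 7151 at day 5 and 6379, 6921 and 6943 at day 7, with an interval of -0.24 to 0.22 on the log2 scale. Tpm4 had a difference of 0.01 (FDR 0.955) and Tagln of 0.19 (FDR 0.804). Tpm2 had 1268, 1003 and 917 at day 5 and 841, 944 and 664 at day 7 (-0.38 ± 0.17, FDR 0.0878). In the fit of the groups alone Tpm2 was called lower (-0.39, FDR 0.0220), beside 5 members called higher.

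**Figure D2:**
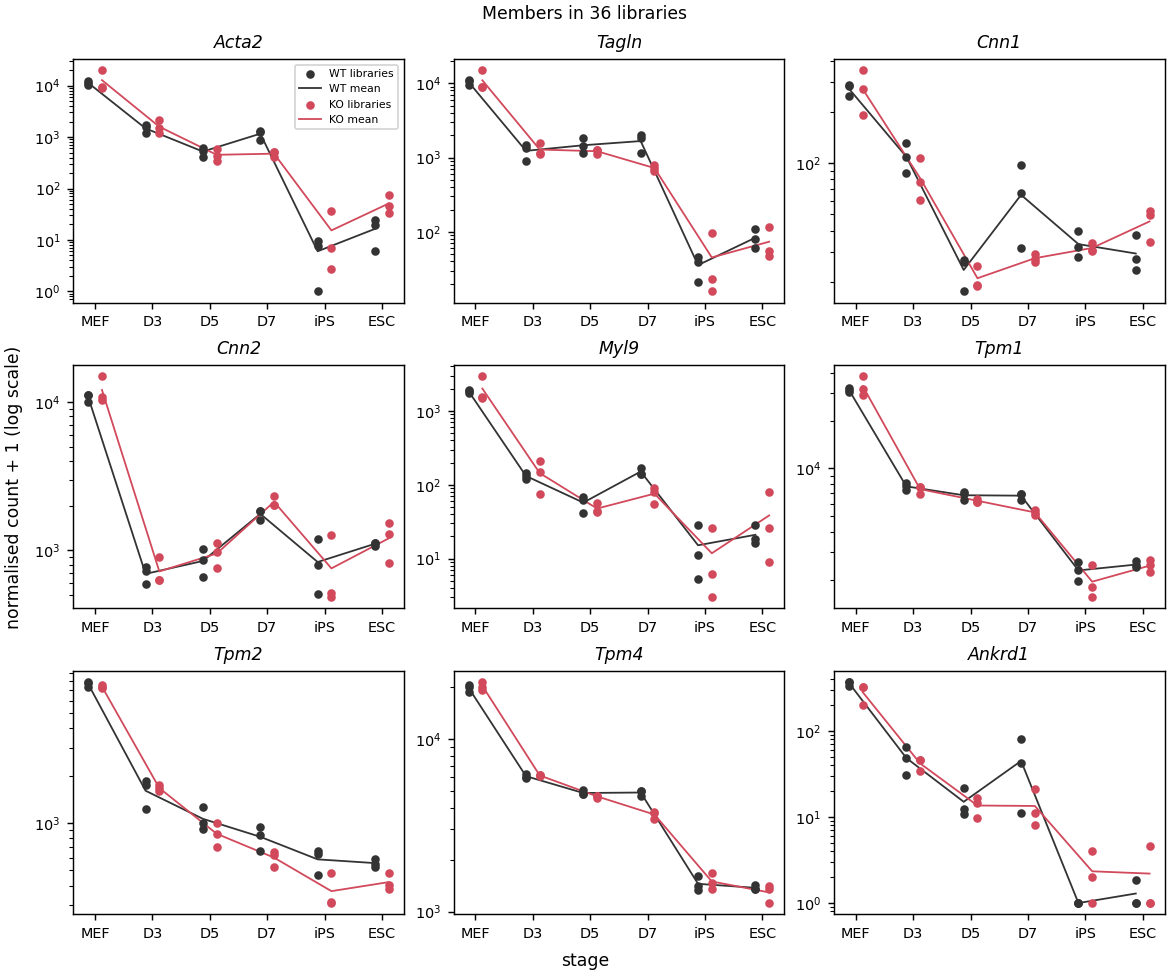
Normalised count plus 1 (log scale) of each member in every library, by stage, with WT in black, KO in red and lines through the group means. All members are highest in MEFs, and the WT and KO points do not overlap at D7 for any member except Ankrd1, with KO above WT for Cnn2.

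Established WT iPSCs had less of every member than WT cells at day 7. All 9 were called lower (37.7% of all genes, with 35.8% higher), 7 of them by more than 1 on the log2 scale (25.0% of all genes) and 8 without overlap (37.5%), with a median change of -1.76 beside 0.01 over all genes. Acta2 went from 871, 1327 and 1278 to 0, 8.61 and 6.49 normalised counts (-7.85 ± 0.63), and Tagln from 1137, 1847 and 2019 to 19.9, 38.8 and 45.5 (-5.59 ± 0.44). Ankrd1 was at 0 counts in all 3 WT iPSC libraries, at least 16.4-fold lower than its day 7 mean when 3 counts per library are taken as the floor, and the median is the same with this bound. Myl9 changed by -3.41, Tpm4 by -1.76, Tpm1 by -1.56 and Cnn2 by -1.08. Cnn1 and Tpm2 changed least, by -0.98 ± 0.32 and -0.48 ± 0.17. Cnn1 libraries overlapped, and its call was lost without the third WT day 7 library (FDR 0.114) and in the 2 groups alone (FDR 0.0512). The Tpm2 call was lost without the second WT day 7 library (FDR 0.0778) or the first WT iPSC clone (FDR 0.0891). Puromycin selection, loss of doxycycline, clonal growth and separation from the added WT MEFs changed together with stage here and cannot be told apart.

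The tropomyosins and Cnn2 stayed well expressed in pluripotent cells, while Acta2, Tagln and Myl9 did not. Cnn1 was low throughout but kept a share of its MEF level similar to that of Cnn2. WT ESCs kept 10.4% of the WT MEF mean for Cnn1 and 10.3% for Cnn2. The tropomyosins kept 7.97% (Tpm1), 7.23% (Tpm2) and 6.93% (Tpm4). Myl9 kept 1.08%, Tagln 0.795% and Acta2 0.137%, and Ankrd1 had a single count across the 3 WT ESC libraries. All 9 were called lower in WT ESCs than in WT MEFs (39.4% of all genes, with 40.0% higher), each by more than 1 on the log2 scale (29.4%) and without overlap (41.0%). Between WT ESCs and WT iPSCs DESeq2 called 0 of the 7 members with an FDR (1.09% of all genes were called higher and 2.11% lower), and 2 members had an unadjusted p under 0.05. The edgeR test also called 0. Those 2 were Tagln, with 79.3, 59.7 and 109 against 19.9, 38.8 and 45.5 (1.25 ± 0.45, FDR 0.0862), and Acta2, with 23.1, 5.06 and 18.2 against 0, 8.61 and 6.49 (FDR 0.139). Tagln libraries did not overlap (6.19% of all genes were separated upward), but Acta2 libraries did. The log2 differences of Myl9 (0.51), Cnn2 (0.41), Tpm1 (0.12), Tpm2 (-0.08) and Tpm4 (-0.08) had FDR of 0.443 to 0.850. Cnn1 and Ankrd1 had no FDR. Without the third WT iPSC clone 1 member was called.

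Loss of Zfp266 had no detected effect on the members before reprogramming or in its first days. DESeq2 called 0 of 9 in MEFs (0.0285% of all genes were called higher and 0.0143% lower), 0 on day 3 (0.374% and 0.119%) and likewise 0 on day 5 (4.72% and 2.43%). The edgeR test called 0 in the 3 comparisons, and 0 members had an unadjusted p under 0.05 in any of them. In MEFs Acta2 was 8776, 9449 and 19885 in KO cells against 11299, 10374 and 12098 in WT cells, with an interval of -0.85 to 1.20 on the log2 scale. The highest KO value came from the third KO MEF library, which also had the highest Tagln (15028) and Myl9 (2978). Without it the Acta2 difference was -0.31 in place of 0.17 and that of Tagln -0.22 in place of 0.08, and 0 members were called. Ankrd1 was the only member whose KO MEF libraries all lay below the WT ones, at 323, 317 and 197 against 369, 332 and 369 (-0.35 ± 0.46), as for 6.49% of all genes. Precision differed by gene. The MEF interval was -0.11 to 0.18 for Tpm4 and -1.02 to 1.26 for Myl9, so a moderate change in Myl9 was not detectable. Differences were 0.16 for Cnn2, 0.08 for Tpm1, -0.06 for Tpm2 and -0.01 for Cnn1.

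At day 3 Acta2 was 1472, 2101 and 1174 in KO cells against 1674, 1170 and 1560 in WT cells, and KO and WT libraries overlapped for every member. The differences ran from -0.42 for Cnn1 to 0.13 for Myl9. Those of Acta2 (0.11), Tagln (0.06), Tpm2 (0.06), Cnn2 (0.05), Tpm4 (0.01), Tpm1 (-0.06) and Ankrd1 (-0.21) lay between.

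At day 5 the values of KO and WT cells were still close. Acta2 was 420, 589 and 343 in KO cells against 540, 414 and 609 in WT cells, and Tagln 1111, 1280 and 1259 against 1138, 1436 and 1821. Tpm4 was the only member without overlap, at 4677, 4567 and 4700 against 5035, 4777 and 4775 (-0.06 ± 0.07, FDR 0.727), where 16.1% of all genes had KO libraries entirely below. Tpm2 had the largest difference among the members, -0.32 ± 0.17 with FDR 0.309. Those of Myl9 (-0.27), Cnn1 (-0.15), Ankrd1 (-0.14), Tpm1 (-0.12) and Cnn2 (0.17) had FDR of 0.678 to 0.935.

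By day 7, 7 of the 9 members were lower in KO cells, where 16.1% of all genes tested were called lower. No member was called higher (13.3% of all genes). Leaving out any one of the 6 day 7 libraries gave 2 to 5 called members, with 2 without the third WT library. The 7 were Acta2, Tagln, Cnn1, Ankrd1, Tpm1, Tpm2 and Tpm4, and the first 4 also passed the log2 limit of 1 (4.42% of all genes). KO and WT libraries were fully separated in 8 members, 7 lower and 1 higher (26.6% and 20.8% of all genes), and the median log2 difference was -1.0 beside -0.04 over all genes. The KO and WT replicates were taken as paired by number at days 3, 5 and 7 from their correlations. Blocked values are given where they change a call.

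The smooth muscle markers Acta2, Tagln and Cnn1 each differed by more than 1 on the log2 scale. Acta2 had 511, 500 and 411 normalised counts in KO cells and 871, 1327 and 1278 in WT cells. Every KO library lay below every WT library, by 2.44-fold in the fit (-1.29 ± 0.52, FDR 0.0479). This call was marginal: it was lost with the replicate block (FDR 0.0980), with TMM scaling (FDR 0.0590) and in each of the 6 fits that left out 1 day 7 library (FDR 0.0573 to 0.144). A fit of the day 7 groups alone, with the spread taken from those libraries, gave -1.25 with FDR 2.16e-16, and edgeR gave FDR 0.00356. Tagln had 650, 793 and 723 in KO cells and 1137, 1847 and 2019 in WT cells (-1.21 ± 0.42, FDR 0.0175), without overlap. Without the third WT day 7 library its FDR was 0.0984, without the second 0.0659, and without the first KO library 0.0664. Of the Tagln exon bases, 1349 lie under exons on the opposite strand, of Pcsk7 and Gm48529, and the strand setting of the counting is not given in the sources used here.

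Cnn1, which is scarce in these cells, had 25.1, 28.0 and 26.3 normalised counts in KO cells and 30.4, 65.4 and 95.7 in WT cells (-1.27 ± 0.32, FDR 0.0007). The groups were separated, but the lowest WT library was close to the KO values, and without the third WT library FDR was 0.0518. Cnn2 behaved otherwise from its paralog: it had 2017, 2322 and 2029 in KO cells and 1605, 1839 and 1843 in WT cells. Every KO library was above every WT library, yet the difference of 0.27 ± 0.28 had FDR 0.525, and the fit of the 2 groups alone gave 0.31 with FDR 0.00133. Myl9 had 90.4, 79.7 and 54.5 in KO cells and 139, 170 and 141 in WT cells (-1.0 ± 0.59, FDR 0.206). It had no overlap, and it passed with the replicate block (-1.03, FDR 0.00844) and in the groups alone (FDR 0.000313).

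The tropomyosins were also lower in KO cells, with smaller estimates than the smooth muscle markers, though these sizes were not tested against each other. Tpm4 had 3426, 3740 and 3775 in KO cells and 4682, 5013 and 4985 in WT cells (-0.42 ± 0.07, FDR 2.48e-07). Tpm1 had 5492, 5118 and 5272 against 6379, 6921 and 6943 (-0.35 ± 0.12, FDR 0.0122), and Tpm2 had 627, 651 and 527 against 841, 944 and 664 (-0.44 ± 0.17, FDR 0.0369). None of the 3 had overlapping libraries. The Tpm4 call held in every fit run, and the Tpm2 call was lost with edgeR (FDR 0.0693), with TMM scaling (FDR 0.0596) and without any of 4 single libraries. Of the read-length windows of Tpm4 transcripts, 9.11% also occur in transcripts of Gm7809. Ankrd1 had 7.03, 20.1 and 9.99 normalised counts in KO cells and 10.1, 41.3 and 79.2 in WT cells. This was the largest fold among the members (-1.80 ± 0.52, FDR 0.00341), with overlap and few counts, and without the third WT library it was -1.04 with FDR 0.138.

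**Figure D3:**
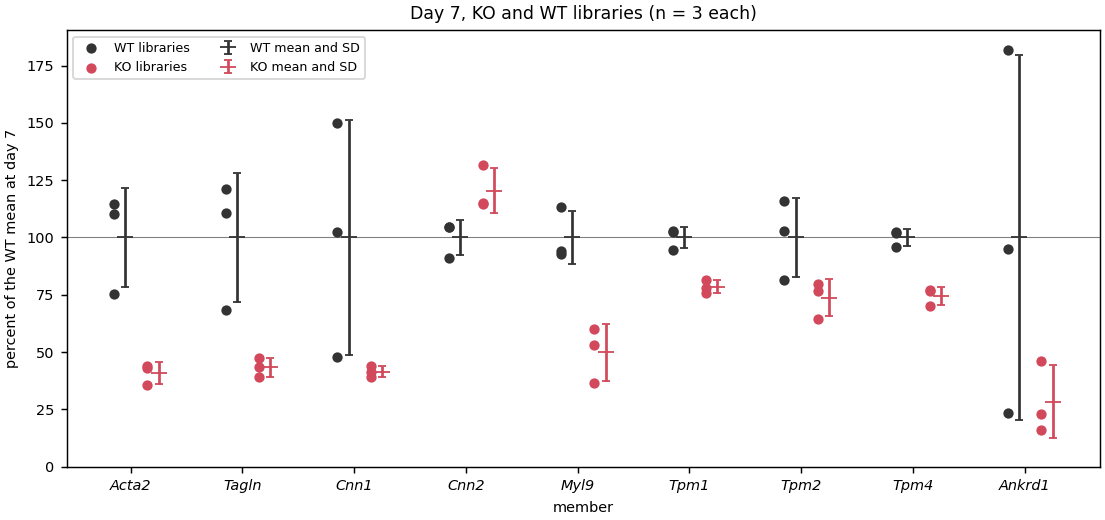
Members at day 7 as a percent of the WT mean of the same gene; points are libraries, and bars give the mean and SD of 3. The KO points lie below the WT points for every member except Cnn2, which lies above, and Ankrd1, where they overlap.

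The difference between genotypes was itself compared across days. Only Tpm4 had a KO effect at day 7 that differed from that at day 5 (-0.36 ± 0.10 on the log2 scale, FDR 0.0180), where 3.02% of all genes were called lower in this comparison and 2.83% higher. Tpm4 was also the only member called between day 7 and day 3 (-0.44 ± 0.10, FDR 0.000903), where 7.19% were called lower and 5.82% higher. These tests share the day 7 libraries. For Acta2 the estimate between days 7 and 5 was -1.08 with an interval of -2.53 to 0.38, and for Ankrd1 -1.66 with FDR 0.203, so the data did not resolve whether their KO effect grew. Those of Cnn1 (-1.11), Tagln (-0.94), Myl9 (-0.73), Tpm1 (-0.23), Tpm2 (-0.12) and Cnn2 (0.10) had FDR of 0.173 to 0.937. Between days 7 and 3 the uncalled estimates ran from -1.59 for Ankrd1 to 0.21 for Cnn2. At an unadjusted p under 0.05 there were 3 members between days 7 and 5 and 4 between days 7 and 3. With the replicate block 2 members were called between days 7 and 3. The day 7 to day 5 call of Tpm4 was lost with edgeR (-0.33, FDR 0.122) and without any of 5 single libraries (FDR 0.0516 to 0.0724). Between day 3 and MEFs, and between days 5 and 3, 0 members were called by DESeq2 and by edgeR, and 0 had an unadjusted p under 0.05, where 0.0840% and 0.0640% of all genes were called higher and 0.0280% and 0% lower.

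**Figure D4:**
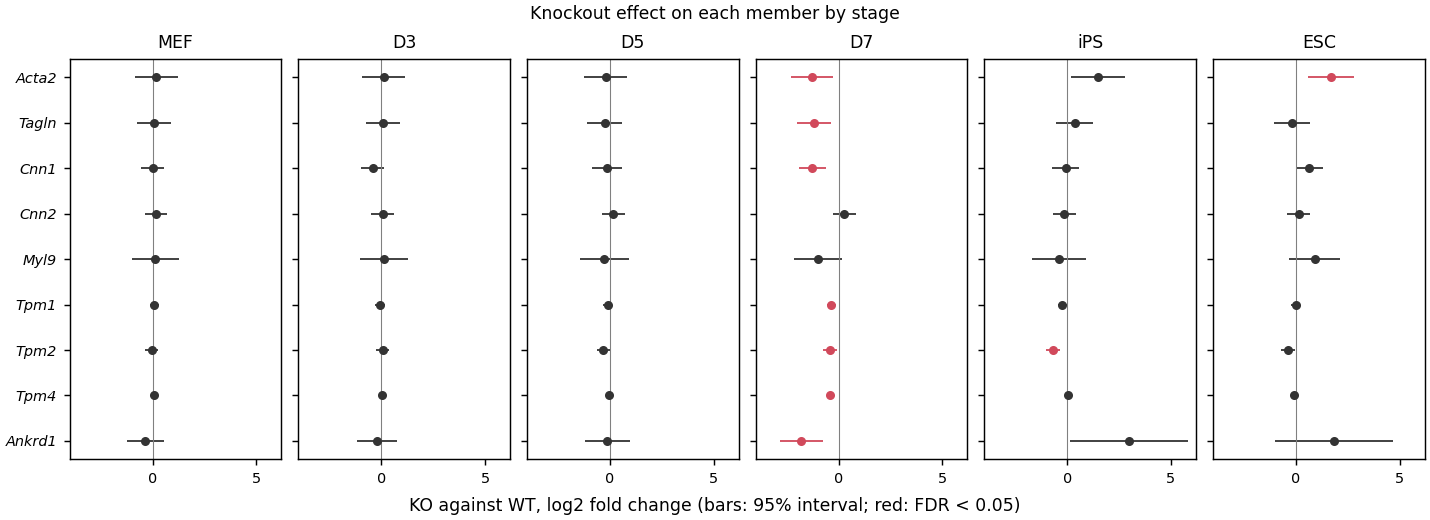
Log2 fold change of KO against WT for each member at 6 stages, with 95% intervals from DESeq2 and red for FDR < 0.05. Estimates lie near 0 in MEFs and at days 3 and 5, and 7 members are red at D7.

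In iPSCs 1 member, Tpm2, was called lower in KO clones (6.63% of all genes), with 308, 315 and 479 normalised counts against 465, 661 and 633 (-0.68 ± 0.17, FDR 0.00179), and 0 were called higher (9.72%). KO clone 3 stood above the others in Acta2 (35.4 against 5.99 and 1.74), Tagln (96.0 against 22 and 14.8) and Cnn2 (1270 against 515 and 483). Without it 3 members were lower in KO clones, with Tpm2 at -0.91, Cnn2 at -0.74 and Tpm1 at -0.45, and the uncalled Acta2 difference was -0.42 in place of a positive one. In the 2 groups alone no member passed, and Tpm2 had FDR 0.0760. In the fit of all libraries Tpm1 was -0.24 (FDR 0.169), Myl9 -0.39, Cnn2 -0.14, Cnn1 -0.08 and Tpm4 0.05. Acta2 (FDR 0.108) and Tagln (FDR 0.691) were not called either, and Ankrd1 had 2.99, 0 and 1.01 normalised counts in KO clones against 0 in every WT clone.

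In ESCs 1 member, Acta2, was higher in KO clones (5.82% of all genes), and 0 were lower (4.29%). Its normalised counts were 32.3, 44.8 and 73.6 against 23.1, 5.06 and 18.2 (1.70 ± 0.57, FDR 0.0362), at 0.446% of the WT MEF mean. The groups were separated (17.7% of all genes upward), and 0.741% of all genes were higher by more than 1 on the log2 scale. The call was lost with edgeR (FDR 0.120) and without any of 4 single libraries, replicates 2 and 3 of each genotype (FDR 0.0585 to 0.215). Tpm2 was again lower without passing, at 477, 380 and 403 against 548, 589 and 527 (-0.40 ± 0.17, FDR 0.127), with no overlap (15.6% of all genes downward). Cnn1 (0.64), Myl9 (0.90), Cnn2 (0.12), Tpm1 (-0.02), Tpm4 (-0.09) and Tagln (-0.18) had FDR of 0.218 to 0.941, and Ankrd1 was at 0 in 2 libraries of each genotype. No member had a KO effect that was called different between iPSCs and ESCs (0.924% of all genes were called higher and 0.547% lower). The edgeR test called 0 as well, and 0 had an unadjusted p under 0.05.

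The surrounding pathway was read through lists of known genes at day 7, each given as genes called higher and lower of those with an FDR. Over all genes 13.3% were called higher and 16.1% lower, with a median of -0.04, and the counts are read against these shares. Nothing here was tested as particular to a list. Of 17 other smooth muscle contractile genes, 1 was higher and 5 lower, with a median of -0.28. They included Tgfb1i1, a focal adhesion LIM protein also named Hic-5 (-0.98, FDR 6.36e-07), and Fhl1, another LIM protein (-1.13, FDR 8.53e-06). Of 16 non-muscle actomyosin genes, 2 were higher and 5 lower, with a median of -0.00. The actin cross-linker Actn1 was higher (0.56, FDR 5.87e-07), and the non-muscle myosin heavy chain Myh14 lower (-1.25, FDR 1.18e-05).

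Whether the SRF, MRTF, YAP and TEAD factors act on the members in these cells was not tested. Transcripts of some of these factors were higher in KO cells, and those of others were lower. Of 7 SRF and MRTF factors, 2 were higher and 2 lower, with a median of -0.22. The ternary complex factor Elk3 was higher (1.23, FDR 4.97e-05), and the coactivator Mrtfb lower (-0.39, FDR 0.00173). Of 8 YAP and TEAD factors, 3 were higher and 0 lower, with a median of 0.02. Yap1 (0.26, FDR 3.20e-06) and Tead1 (0.37, FDR 0.00102) were among them. Of 21 YAP and TEAD target genes, 2 were higher and 7 lower, with a median of -0.31. Tgfb2, a TGF-beta ligand (-1.41, FDR 1.00e-09), and Crim1 (-0.82, FDR 7.01e-09) had the lowest FDR. Of 13 TGF-beta pathway genes, 1 was higher and 5 lower, with a median of -0.33. The ligand Tgfb3 was lower (-0.59, FDR 8.03e-05), and the inhibitory Smad7 higher (0.85, FDR 0.000126).

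Markers of cell identity moved at day 7 together with the members. Of the 14 fibroblast markers with an FDR, 2 were higher and 5 lower in KO cells, with a median of -0.72. Their summed level was 30058 to 48825 normalised counts in KO cells and 48983 to 58666 in WT cells, and none was at 0 in every library. The matrix proteoglycan Dcn (-1.14, FDR 1.16e-07) and the mesenchymal factor Prrx1 (-0.72, FDR 2.02e-05) had the lowest FDR. Of 10 pluripotency markers, 9 were higher and 0 lower, with a median of 1.82 and sums of 34768 to 43833 in KO cells against 12145 to 16103 in WT cells. Dppa4 (3.07, FDR 4.69e-47) and Zfp42, also named Rex1 (1.71, FDR 5.63e-24), led that list. The part of cell composition in the lower members was not tested.

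Markers of other cell types were read in the same way. Of 10 skeletal and cardiac muscle markers with an FDR, 2 were higher and 0 lower (sums 963 to 1167 in KO cells and 313 to 492 in WT cells). They were Mylpf, a fast skeletal myosin light chain (2.16, FDR 2.47e-13), and Ttn, the giant sarcomere protein titin (1.98, FDR 0.000108). Of 8 vascular smooth muscle and pericyte markers, 1 was higher and 2 lower (sums 1131 to 1257 and 1203 to 1950). Mcam was higher (0.93, FDR 0.00145), and Kcnj8 had a mean of 1.00 against 6.45 normalised counts (FDR 0.0121). Of 5 endothelial markers, 2 were higher and 0 lower (sums 3753 to 3781 and 1538 to 1941). They were the receptor Tie1 (1.55, FDR 8.71e-14) and the adhesion molecule Pecam1 (1.77, FDR 1.14e-08). Of 4 macrophage markers, 0 were called (sums 474 to 505 and 289 to 378). Of 5 epithelial markers, 2 were higher and 0 lower (sums 54368 to 56812 and 54588 to 59634), the keratin Krt18 (1.92, FDR 0.00133) and the tight junction protein Ocln (0.45, FDR 0.0330). Most of these lists were also higher in pluripotent cells than in MEFs, so a higher sum does not by itself name a cell type. The skeletal and cardiac markers summed to 2753 to 2961 in WT ESCs and 223 to 301 in WT MEFs. The endothelial markers summed to 1793 to 2050 and 256 to 289. The vascular markers went the other way, with 2347 to 2865 and 16193 to 16679. The part of any of these cells in the members' values was not tested.

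**Figure D5:**
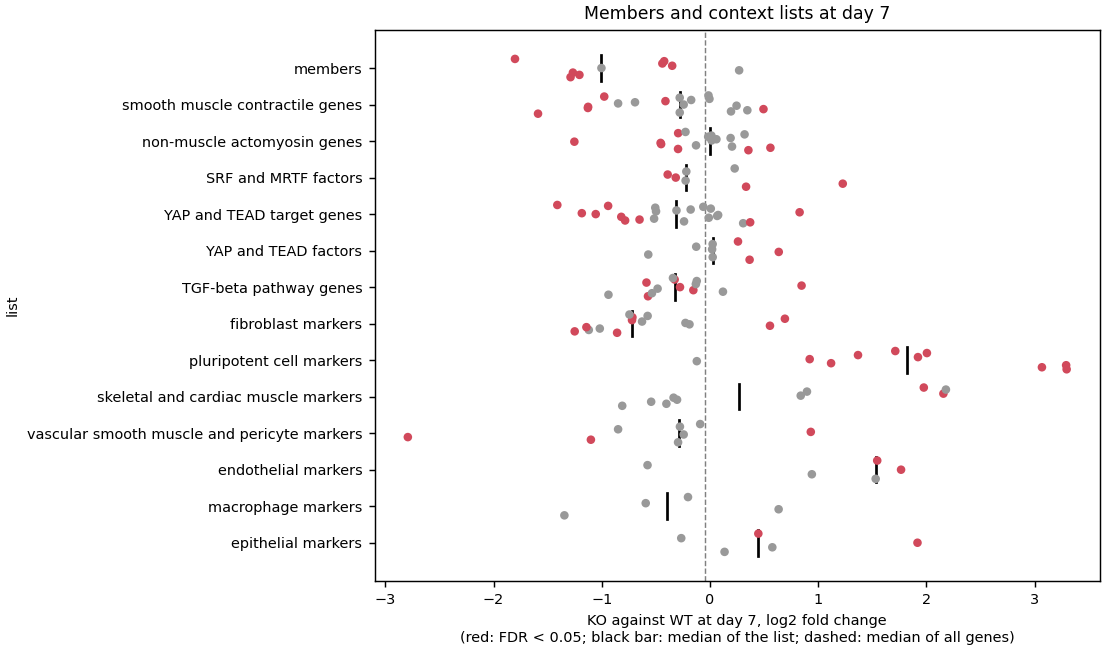
Log2 fold change of KO against WT at day 7 for each gene with an FDR in the members and the 13 context lists; red points have FDR < 0.05, black bars are list medians and the dashed line is the median of all genes. The members have a median of -1.0, and pluripotent cell markers lie to the right at 1.82.

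The same lists were read in the other genotype comparisons, against the shares of all genes called higher and lower. Those shares were 0.0285% and 0.0143% in MEFs, 0.374% and 0.119% at day 3, and 4.72% and 2.43% at day 5. They were 9.72% and 6.63% in iPSCs, and 5.82% and 4.29% in ESCs. In MEFs no list held a call, and at day 3 the only calls were 1 pluripotency marker higher and 1 lower. At day 5 the pluripotency markers had 8 higher and 0 lower, and the YAP and TEAD factors 3 higher and 0 lower. The endothelial markers had 2 higher, and the skeletal and cardiac markers and the epithelial markers 1 each. The non-muscle actomyosin genes had 1 higher and 1 lower, and the smooth muscle contractile genes and the YAP and TEAD targets 1 lower each. In iPSCs the smooth muscle contractile genes had 3 higher and 0 lower, the non-muscle actomyosin genes 0 higher and 5 lower, the YAP and TEAD targets 4 higher and 1 lower, and the TGF-beta pathway genes 3 higher and 0 lower. Beyond these, iPSCs had 2 fibroblast markers, 2 skeletal and cardiac markers, 2 epithelial markers and 1 vascular smooth muscle marker higher, 2 endothelial markers higher and 2 lower, and 1 YAP and TEAD factor and 1 pluripotency marker lower. In ESCs the non-muscle actomyosin genes and the YAP and TEAD targets had 1 higher and 2 lower each. The other ESC calls were 1 fibroblast and 1 macrophage marker higher, and 1 endothelial marker higher and 1 lower. Lists not named at a stage had 0 calls there.

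Across the WT stages many pathway genes were lower at day 3 and again in pluripotent cells, as were many genes in all: 37.1% of all genes were called lower from MEFs to day 3, 37.7% from day 7 to iPSCs and 39.4% from MEFs to ESCs. From day 3 to day 5 the share was 12.7%, and from day 5 to day 7 it was 10.7%, with 13.5% higher. From MEFs to day 3, 11 of 17 smooth muscle contractile genes were lower and 2 higher. Of the non-muscle actomyosin genes 10 of 16 were lower and 3 higher, and of the SRF and MRTF factors 5 of 7 lower. Of the YAP and TEAD targets 17 of 21 were lower and 2 higher, of the YAP and TEAD factors 7 of 8 lower and 1 higher, and of the TGF-beta pathway genes 11 of 13 lower and 2 higher. From day 3 to day 5 the counts higher and lower were 2 and 6, 1 and 6, 0 and 2, 2 and 7, 1 and 1, and 0 and 2 for the same 6 lists in that order. From day 5 to day 7 they were 3 and 0, 2 and 3, 1 and 1, 5 and 2, 1 and 0, and 3 and 2. From day 7 to iPSCs they were 4 and 11, 3 and 8, 1 and 4, 1 and 18, 0 and 5, and 2 and 9. From MEFs to ESCs they were 1 and 14, 2 and 14, 0 and 6, 1 and 18, 0 and 7, and 1 and 11. Between ESCs and iPSCs these 6 lists had 0 calls by DESeq2.

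Identity markers changed at most of the WT steps. From MEFs to day 3, 12 of 14 fibroblast markers and 7 of 8 vascular smooth muscle markers were lower, and 7 of 10 pluripotency markers and 4 of 5 epithelial markers were higher. The other markers with calls at day 3 were 1 skeletal and cardiac marker higher and 4 lower, 3 endothelial markers higher and 1 lower, and 1 macrophage and 1 epithelial marker lower. Counts higher and lower for fibroblast, pluripotency, skeletal and cardiac, vascular, endothelial, macrophage and epithelial markers were 0 and 4, 7 and 0, 1 and 0, 1 and 2, 2 and 0, 1 and 0, and 5 and 0 from day 3 to day 5. From day 5 to day 7 they were 3 and 2, 9 and 1, 2 and 0, 1 and 0, 2 and 0, 1 and 0, and 2 and 0. From day 7 to iPSCs all 10 pluripotency markers were higher, and 11 of 14 fibroblast markers were lower with 1 higher. From MEFs to ESCs all 14 fibroblast markers with an FDR were lower and all 10 pluripotency markers higher. The other 5 marker lists had 4 and 2, 2 and 5, 1 and 3, 0 and 3, and 0 and 4 higher and lower from day 7 to iPSCs, and 6 and 5, 0 and 7, 3 and 1, 1 and 3, and 3 and 2 from MEFs to ESCs. Between ESCs and iPSCs 1 pluripotency marker was higher in ESCs, with no other call among the marker lists.

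KO effects on the listed genes were also compared, against the shares of all genes called higher and lower. These shares were 2.83% and 3.02% between days 7 and 5, and 5.82% and 7.19% between days 7 and 3. They were 0.0640% and 0% between days 5 and 3, and 0.0840% and 0.0280% between day 3 and MEFs. For iPSCs and ESCs they were 0.924% and 0.547%. Between days 7 and 5, 1 smooth muscle contractile gene, 1 YAP and TEAD target and 1 fibroblast marker had a lower effect at day 7, and 2 pluripotency markers a higher one. Between days 7 and 3, the smooth muscle contractile genes had 3 lower, the YAP and TEAD targets 2 higher and 4 lower, the TGF-beta pathway genes 1 higher and 2 lower, the fibroblast markers 2 lower and the pluripotency markers 5 higher. Of the non-muscle actomyosin genes and the skeletal and cardiac, vascular and endothelial markers, 1 each was higher. Between days 5 and 3 the only call was 1 pluripotency marker higher, and between day 3 and MEFs there was none. Between iPSCs and ESCs 1 YAP and TEAD target and 1 TGF-beta pathway gene were higher and 1 non-muscle actomyosin gene lower.

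Each member's profile was set against the mean profile, of which it is itself a part, and this raises every correlation. Over the 12 group means, the correlation of each member with the mean of the 9 standardised profiles was 0.99 for Tpm1 and Myl9, 0.98 for Tpm4, 0.97 for Ankrd1, 0.96 for Tpm2, 0.95 for Acta2, 0.94 for Tagln, 0.86 for Cnn1 and 0.81 for Cnn2. Cnn1 and Cnn2 stood furthest from the rest. The mean of Cnn2 was 694 normalised counts at day 3 and 1762 at day 7 in WT cells, and the mean of Cnn1 in WT ESCs was above its day 5 mean of 22.4. The 5 genes outside the members with the most similar profile, of 13278 with a mean of at least 100 normalised counts, were Tspan11 (r = 0.997), Ets1 (0.994), Oaf (0.994), Daam2 (0.994) and Jph2 (0.993). Ets1 encodes a transcription factor, Daam2 a formin-related protein and Jph2 a junctophilin of muscle membranes. They were picked for this likeness, so their levels are not a separate result. These correlations are descriptions over 12 group means that share a size-factor scaling, and the MEF groups weigh heavily in them.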

How the data were processed

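Messenger RNA was sequenced in 36 libraries (stranded kit, single-end reads of 75 bases). The authors trimmed the reads with Cutadapt, aligned them with STAR to GRCm38 and deposited raw gene counts from Rsubread together with normalised counts, a signal that the authors scaled with DESeq2 size factors; the annotation release and strand setting are not given in the sources used here. Size factors recomputed here gave the deposited values. The names in a deposited comparison table supplied gene symbols; its fold changes and p-values were not used. DESeq2 1.42.0 (R 4.3.3) was fitted to all 36 libraries with 1 factor of 12 levels, median-ratio scaling, 2-sided Wald tests, independent filtering and Benjamini-Hochberg FDR over all genes, with calls at FDR < 0.05. edgeR 4.0.16 (quasi-likelihood, TMM) was an alternative, with other filters, scalings, samples and a replicate block. Same-numbered KO and WT libraries deviated together at day 3 (r = 0.513, 0.117 and 0.323), day 5 (0.306, 0.109 and 0.256) and day 7 (0.341, 0.188 and 0.443). WT days 5 and 7 did so as well (0.296, 0.160 and 0.262), and these were taken as paired. The pairing is inferred: at day 3 libraries of different numbers reached 0.134. WT days 3 and 5 had 0.175, 0.0752 and 0.260. The iPSC pairs had -0.150, 0.0263 and 0.264 and were not taken as paired. Variance between replicates was 3.16 to 103 times counting noise, so none was a copy. The main DESeq2 fit and the edgeR fit were tested on simulated data, for KO against WT at day 7 only. The simulation gave every gene the same dispersion and changed only genes above a minimum mean. Its fold was larger than that of any member at day 7, so it does not measure power for the members. The rule for named genes took the 9 members in every comparison (in the comparisons between KO effects, some by range or count only), the 2 genes of lowest day 7 FDR in each context list, the 5 most similar profiles, and Zfp266. The lists were smooth muscle contractile, non-muscle actomyosin, SRF and MRTF, YAP and TEAD factors and targets, TGF-beta, fibroblast, pluripotent, skeletal and cardiac, vascular, endothelial, macrophage and epithelial genes; 1 further list is not reported here. Members and lists were chosen with earlier results of these data known.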

Additional observations from a re-analysis of the deposited data

Results flagged for a closer look

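The KO effect on Tpm4 differed between days, by a test of the difference itself. On the log2 scale it was lower at day 7 than at day 5 by -0.36 (FDR 0.0180), and lower than at day 3 by -0.44 (FDR 0.000903). The day 7 libraries are shared by both tests. KO and WT values of Tpm4 were 6170, 6089 and 6183 against 6281, 6012 and 5974 at day 3, and 3426, 3740 and 3775 against 4682, 5013 and 4985 at day 7. The difference between days 7 and 5 was not called by edgeR (-0.33, FDR 0.122).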

How the results depend on the processing

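Of 17 comparisons, 10 kept a similar count of called members under every alternative. Member results past the threshold, together with every member for KO at day 7, numbered 48. Of these, 33 stayed on the same side of the threshold throughout, with 0 reversed. This tally leaves out 105 member results that were not past the threshold. Their 1605 values under alternatives had 99 sign changes, and 28 came to pass the threshold. Between MEFs and day 3, day 7 and iPSCs, and MEFs and ESCs in WT cells, 25 of 27 did. In iPSCs the KO comparison had 2 called members with the replicate block and 0 in the groups alone. In ESCs it had 0 with edgeR, 2 with the replicate block and 2 in the groups alone. WT day 7 against day 5 had 5 with edgeR and 6 in the groups alone, of which 5 were higher and Tpm2 was lower. The KO effect at day 7 against day 5 had 0 with edgeR and 3 in the groups alone, and against day 3 it had 2 with the replicate block and 5 in the groups alone. Replicate numbers were not taken as pairing the iPSCs, ESCs or MEFs, and the block moved no other count by over 1.5 times. Leaving out 1 library gave 2 to 5 called members for KO at day 7, 1 to 3 in iPSCs, 0 to 1 in ESCs, 0 to 1 for WT ESCs against iPSCs, 0 to 3 for the KO effect at day 7 against day 5, and 1 to 3 against day 3. At day 7 the lowest count came without the third WT library, and 4 members were called without the second WT or the first KO library. The fewer samples in these fits lower their power; other causes were not tested. Leaving the third KO MEF library out of the whole fit, chosen after seeing the data, moved no count. With 3 libraries a group, Ankrd1 and Cnn1 rest on few counts outside MEFs.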
